A study of Mus musculus with 9 samples.

Results

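The Tdpoz and Tcstv genes are 2 small multicopy families that mouse embryos transcribe in a short burst at the 2-cell stage. Described here are Tdpoz1, Tdpoz2, Tdpoz3, Tdpoz4 and Tdpoz5 on chromosome 3, and Tcstv1, Tcstv3 and AF067061 on chromosome 13. They were taken by name, and these 8 of the 24454 genes in the count table were all present. All 8 also passed the filter on low counts, which left 16964 genes for testing.

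RNA was sequenced from embryos of ICR mice, an outbred strain, that were kept in culture until the 2-cell stage, with 3 embryos pooled in each library. The ZGW serum group (3 libraries) carried a high glucose load and received rat serum named ZGW in the labels. The high glucose group (3 libraries) carried the glucose load alone, and the control group (3 libraries) carried neither. The labels give no glucose concentration, no serum dose and no culture time, and they do not say whether the other 2 groups had rat serum without ZGW, so serum and drug cannot be told apart. The design text calls the 3 libraries of each group biological replicates, but nothing ties them to separate matings. The p-values therefore speak to variation among these pools, part of which may be technical. Totals ran from 11934924 to 16916343 counts per library.

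Tdpoz proteins carry a TRAF-like (MATH) domain and a BTB/POZ domain, the layout of the ubiquitin ligase adaptor Spop, and their genes lie side by side in a cluster. Tcstv genes encode short proteins of the 2-cell stage. In mouse embryonic stem cells, forced Tcstv1 or Tcstv3 expression has been tied to longer telomeres, and both families come on in the rare cells that return to a 2-cell-like state. In the embryo both belong to the wave of transcripts of early genome activation, many of which respond to the transcription factor Dux in mouse embryonic stem cells.

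In the GENCODE gene models for GRCm38 (mm10 is another name for it), the 5 Tdpoz genes span 309773 bases of chromosome 3 and the 3 Tcstv genes span 424791 bases of chromosome 13. Tdpoz2 lies at chr3:93651542-93652686 (minus strand), Tdpoz1 at chr3:93669333-93676310 (minus), Tdpoz4 at chr3:93796398-93797510 (plus), Tdpoz3 at chr3:93826020-93827117 (plus) and Tdpoz5 at chr3:93960292-93961314 (minus). Tcstv1 lies at chr13:119893388-119894785 (minus), AF067061 at chr13:120263114-120264517 (plus) and Tcstv3 at chr13:120316878-120318178 (plus). The coding sequences are short, from 1023 bases in Tdpoz5 to 1113 in Tdpoz4, and 510 bases in Tcstv3 against 516 in both Tcstv1 and AF067061.

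How alike the copies are decides which counts can be told apart, and the first 60 coding bases show it, 5′ to 3′ from the GENCODE transcripts, with the start codon in capitals.
Tdpoz1: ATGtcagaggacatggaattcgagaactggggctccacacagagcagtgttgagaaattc
Tdpoz2: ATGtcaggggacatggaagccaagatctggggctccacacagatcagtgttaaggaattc
Tdpoz3: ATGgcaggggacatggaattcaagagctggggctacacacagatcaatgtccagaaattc
Tdpoz4: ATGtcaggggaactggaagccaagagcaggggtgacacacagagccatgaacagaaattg
Tdpoz5: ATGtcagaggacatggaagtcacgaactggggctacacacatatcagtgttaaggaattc
Tcstv1: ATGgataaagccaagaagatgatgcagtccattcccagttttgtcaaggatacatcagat
Tcstv3: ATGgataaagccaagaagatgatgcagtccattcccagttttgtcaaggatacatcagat
AF067061: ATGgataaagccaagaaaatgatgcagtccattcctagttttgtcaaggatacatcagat

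In this stretch Tcstv1 and Tcstv3 match at 60 of 60 bases, and AF067061 matches each of them at 58 of 60. Tdpoz genes match each other at 42 (Tdpoz4 and Tdpoz5) to 54 (Tdpoz2 and Tdpoz5) of 60. Over the whole coding sequence, identity ran from 93.6% to 95.3% among the Tcstv genes and from 72.1% (Tdpoz4 and Tdpoz5) to 88.1% (Tdpoz1 and Tdpoz3) among the Tdpoz genes.

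The Tdpoz5 transcript is 1023 bases long and has 0 differences from that of Gm10697, a neighbouring copy that RefSeq names Tdpoz7. All 9 deposited counts of these 2 genes are equal, so the files do not separate the copies. Whether shared reads were counted for each copy or divided between them is not known, so the value of Tdpoz5 may stand for the pair or for an equal part of it. For the other members, the share of 50-base stretches also found in transcripts of other genes was 45.1% for Tdpoz1, 48.3% for Tdpoz2, 66.2% for Tdpoz3, 41.2% for Tdpoz4, 16.8% for Tcstv1, 31.4% for Tcstv3 and 22.6% for AF067061. How the authors treated reads that match several copies is not given in the sources used here, so the counts of single members are uncertain to that extent, and sums over a family are given beside them.

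RefSeq promoter windows of GRCm38.p6, which run from 250 bases before to 50 after a gene's annotated start, exist for 4 of the 8 members. The windows of Tdpoz1 and AF067061, from different families and chromosomes, align over 157 columns at 73.2% identity. The 140 bases before the start are shown for both because they hold most of that alignment, with the letters TATATAA, which match a TATA box, in capitals. The Tdpoz1 stretch is chr3:93676284-93676423 (minus strand) and the AF067061 stretch is chr13:120262955-120263094 (plus strand).
Tdpoz1: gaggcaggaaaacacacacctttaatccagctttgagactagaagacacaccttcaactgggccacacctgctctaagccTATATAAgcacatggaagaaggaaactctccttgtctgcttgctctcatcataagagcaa
AF067061: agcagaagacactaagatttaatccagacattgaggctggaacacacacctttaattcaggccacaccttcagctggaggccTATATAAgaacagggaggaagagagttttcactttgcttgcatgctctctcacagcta

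TATATAA was searched on both strands of each window and begins 60 bases before the start in Tdpoz1 and 58 before it in AF067061. It is in 1065 of 32851 RefSeq windows (3.24%). The longer run GCCTATATAAG, which contains it and was chosen after both stretches were seen, is in 32 windows (0.0974%), these 2 among them. In GENCODE the start of Tdpoz1 lies 27 bases further upstream and that of AF067061 19 bases further downstream, which puts the letters 33 and 77 bases before those starts. TATATAA was in neither the Tdpoz4 nor the Tdpoz5 window. These 2 windows are set at the start codon, with no annotated untranslated part, so the absence does not speak to a promoter. They align with each other over 205 columns at 76.1% identity.

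Per length, the Tcstv genes were the more abundant family in all groups. Levels are CPM (counts scaled to the library total and the TMM factor) per kilobase of annotated exon. Averaged over the 9 libraries, Tcstv3 stood at 498 CPM per kb, AF067061 at 426 and Tcstv1 at 282. Tdpoz5, not separable from its identical copy, followed at 154, then Tdpoz3 at 32.7, Tdpoz4 at 27.8, Tdpoz1 at 21.6 and Tdpoz2 at 5.11.

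Against the 16277 tested genes with an annotated length, Tcstv3 lay above 99.1% and Tdpoz2, the lowest member, above 65.1%. The step from Tcstv1 down to Tdpoz5 held in 9 of 9 libraries, as did the steps from AF067061 to Tcstv1, from Tdpoz5 to Tdpoz3 and from Tdpoz1 to Tdpoz2. For Tdpoz5 this rests on its counts as deposited. If they were an equal part of a divided pair and were doubled, its step from Tcstv1 would not hold in all libraries. In high glucose replicate 1, for example, Tcstv1 stood at 254 CPM per kb and Tdpoz5 at 187. Neighbours that overlapped in their order were Tcstv3 and AF067061 (7 of 9 libraries), Tdpoz3 and Tdpoz4 (6 of 9) and Tdpoz4 and Tdpoz1 (8 of 9). The gene models of Tdpoz3, Tdpoz4 and Tdpoz5 hold the coding sequence alone, so their level per kb is set by a shorter length than that of Tdpoz1, whose annotated exons cover 2353 bases.

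**Figure D1:**
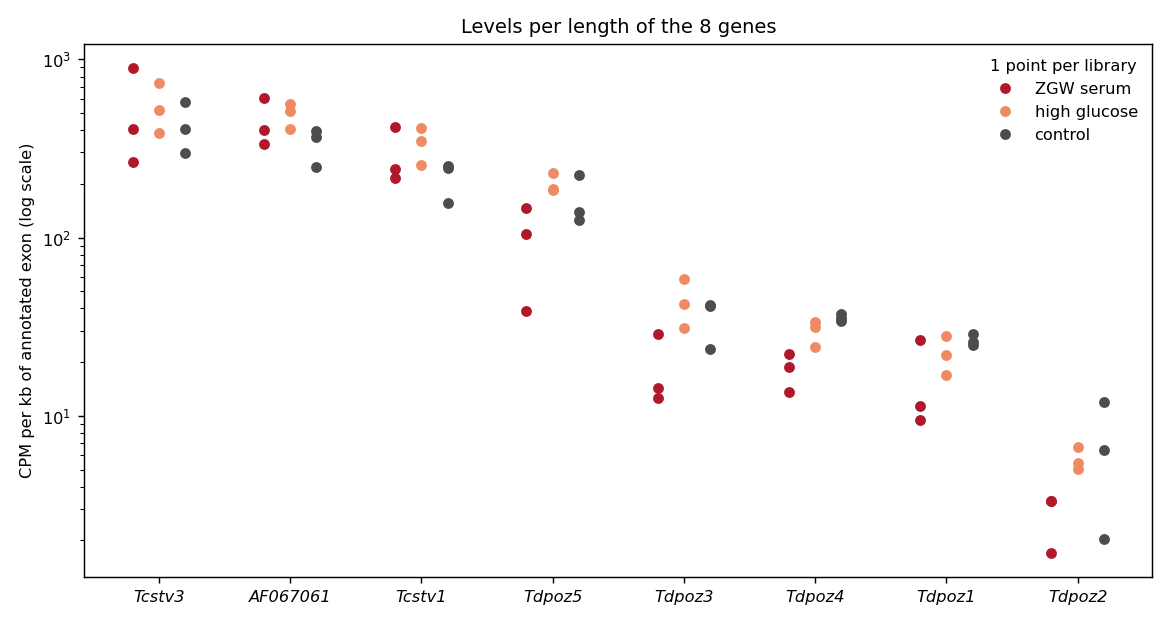
Level of each gene in CPM per kb of annotated exon (log scale), 1 point per library, with ZGW serum, high glucose and control side by side and genes ordered by their mean over 9 libraries. With the counts as deposited, the 3 Tcstv genes lie above Tdpoz5 in every library, and the other Tdpoz genes lie below it.

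The ZGW serum libraries held fewer Tdpoz transcripts than the high glucose libraries after TMM scaling, while Tcstv transcripts overlapped between the groups. Relative to library totals alone, the summed Tdpoz level overlapped too, since ZGW serum replicate 2, at 304 CPM, was above high glucose replicate 3, at 287 CPM. No single member passed an adjusted threshold of 0.05 in any comparison by edgeR's quasi-likelihood test, so the levels of single genes are given as values. In pooled embryos, fewer embryos with a transcript and less of it per embryo cannot be told apart.

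Tdpoz3 showed the lowest log2 fold change of the 8 genes between ZGW serum and high glucose. It had 15.8, 31.5 and 13.8 CPM in ZGW serum libraries, 64.3, 46.3 and 33.9 CPM in high glucose libraries and 46.0, 26.0 and 45.2 CPM in control libraries. All ZGW serum values were below all high glucose values after TMM scaling, but not relative to library totals alone, and 1 of them, replicate 2, was above the lowest control. The log2 fold change was -1.24 ± 0.44 (SE) for ZGW serum against high glucose (edgeR adjusted p = 0.511), and -0.94 ± 0.44 against control (edgeR adjusted p = 0.521).

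Tdpoz5, the most abundant Tdpoz gene, had 107, 150.0 and 39.8 CPM in ZGW serum libraries, 192, 236 and 188 CPM in high glucose libraries and 128, 143 and 231 CPM in control libraries. ZGW serum and high glucose did not overlap, ZGW serum and control did, and ZGW serum replicate 3 was the lowest of all 9. Its log2 fold change was -1.05 ± 0.43 for ZGW serum against high glucose (edgeR adjusted p = 0.556).

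Tdpoz4 had 21.0, 24.7 and 15.1 CPM in ZGW serum libraries, 35.2, 37.2 and 27.2 CPM in high glucose libraries and 41.5, 39.4 and 37.6 CPM in control libraries. After TMM scaling each group's range lay apart from the next, with ZGW serum lowest and control highest. Relative to library totals alone, ZGW serum still lay below control without overlap, while high glucose overlapped both. The log2 fold change was -0.71 ± 0.35 for ZGW serum against high glucose (edgeR adjusted p = 0.596) and -0.96 ± 0.35 for ZGW serum against control (edgeR adjusted p = 0.439).

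Tdpoz1 had 26.8, 63.0 and 22.3 CPM in ZGW serum libraries, 51.5, 66.1 and 39.6 CPM in high glucose libraries and 58.7, 61.3 and 67.3 CPM in control libraries. Replicate 2 of ZGW serum was level with the other groups, and replicates 1 and 3 lay below all 6 of their libraries. Its log2 fold change was -0.49 ± 0.42 for ZGW serum against high glucose and -0.74 ± 0.42 for ZGW serum against control (edgeR adjusted p = 0.793 and 0.588).

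Tdpoz2 was the Tdpoz gene with the fewest counts. It had 48, 72 and 22 counts in ZGW serum libraries, 82, 100 and 71 counts in high glucose libraries and 188, 99 and 32 counts in control libraries. As CPM, ZGW serum (1.96 to 3.83) lay below high glucose (5.79 to 7.70), and the control range (2.34 to 13.7) covered nearly all of both. The log2 fold change of -1.04 ± 0.76 for ZGW serum against high glucose carried the widest error of the 8 genes.

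Counted over the family, 5 of 5 Tdpoz genes had a log2 fold change below 0 for ZGW serum against high glucose, with a median of -1.04, beside 49.9% of all genes and a median of 0.0011. The groups did not overlap, with ZGW serum lower, for 4 of the 5, beside 8.26% of all genes, and relative to library totals alone for 2 of the 5, Tdpoz2 and Tdpoz5, beside 7.21%. None of the 8 members was higher with ZGW serum without overlap, beside 9.08% of all genes. An unadjusted edgeR p under 0.05 was reached by Tdpoz3 and Tdpoz5, beside 8.68% of all genes, and an adjusted one by 0 of 16964 genes (0.0%). DESeq2 called 241 genes in this comparison and none of the 8 members. The 2 unadjusted calls came down to 0 without replicate 1 of high glucose or without replicate 1 or 3 of ZGW serum, came to 1 without high glucose replicate 2 and to 3 without replicate 2 of ZGW serum.

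**Figure D2:**
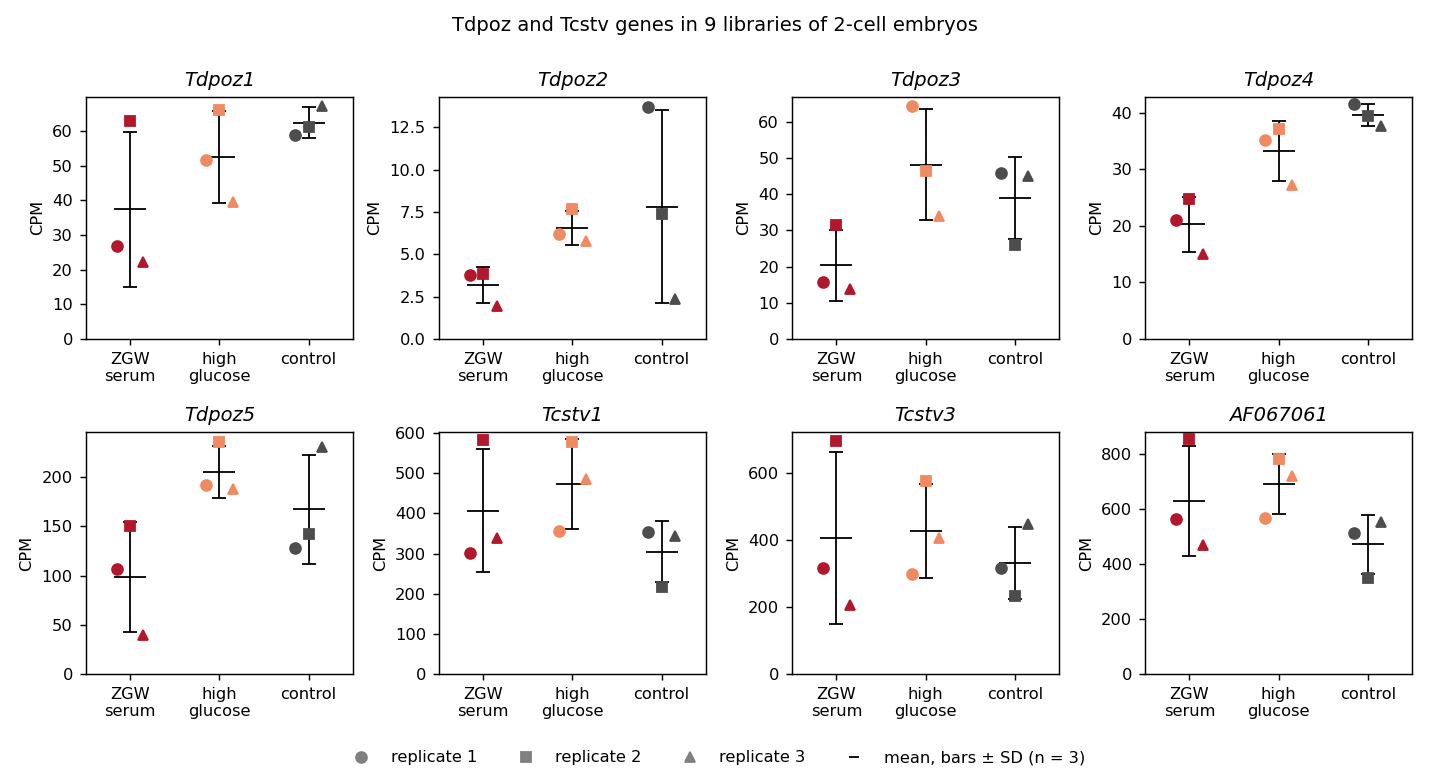
CPM of each gene in every library, with ZGW serum left of high glucose and control, a marker shape for each replicate number, and the mean with SD bars (n = 3). After TMM scaling, as plotted, ZGW serum points of Tdpoz2, Tdpoz3, Tdpoz4 and Tdpoz5 lie below all high glucose points, while those of Tcstv1, Tcstv3 and AF067061 spread across them.

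The Tcstv genes gave a different picture. Tcstv1 had 301, 582 and 338 CPM in ZGW serum libraries, 355, 576 and 486 CPM in high glucose libraries and 354, 218 and 343 CPM in control libraries. The ZGW serum range contained the high glucose range, and high glucose lay just above control, by about 1 CPM at the nearest values. Relative to library totals alone, high glucose and control overlapped. The log2 fold change was -0.22 ± 0.32 for ZGW serum against high glucose (edgeR adjusted p = 0.899) and 0.63 ± 0.32 for high glucose against control (edgeR adjusted p = 0.713).

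AF067061 is the gene with the most counts of the 8. It had 566, 856 and 471 CPM in ZGW serum libraries, 570.0, 785 and 721 CPM in high glucose libraries and 515, 351 and 554 CPM in control libraries. High glucose lay above control without overlap after TMM scaling, but not relative to library totals alone, and ZGW serum overlapped both. The log2 fold change was -0.13 ± 0.29 for ZGW serum against high glucose and 0.55 ± 0.29 for high glucose against control (edgeR adjusted p = 0.935 and 0.720).

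Tcstv3 had 315, 694 and 206 CPM in ZGW serum libraries, 300.0, 576 and 406 CPM in high glucose libraries and 316, 233 and 446 CPM in control libraries. ZGW serum held both the highest and the lowest of the 9 values, and all 3 groups overlapped. Its log2 fold change was -0.077 ± 0.44 for ZGW serum against high glucose (edgeR adjusted p = 0.979) and 0.29 ± 0.44 for ZGW serum against control (edgeR adjusted p = 0.867). The sign of both rested on single libraries: the first ran from -0.71 to 0.26 and the second from -0.38 to 0.63 as each library was left out in turn, and the first was above 0 without replicate 2 of high glucose or without replicate 1 or 3 of ZGW serum, and the second below 0 without ZGW serum replicate 2.

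Set against control, the families lay on opposite sides of 0 with ZGW serum. Below 0 were 5 of 5 Tdpoz genes (median -0.94), beside 50.0% of all genes, and above 0 were 3 of 3 Tcstv genes (median 0.42). As each library was left out in turn, the 5 Tdpoz genes stayed below 0, the nearest being Tdpoz5 at -0.36. The Tcstv values were less firm and came down to 0.034 for Tcstv1, 0.10 for AF067061 and -0.38 for Tcstv3. The groups did not overlap for Tdpoz4 alone, lower with ZGW serum, beside 7.3% of all genes, and for no member with ZGW serum higher, beside 9.02%. Tdpoz4 was also the 1 member with an unadjusted edgeR p under 0.05, beside 9.86% of all genes, and 0 of 16964 genes (0.0%) passed the adjusted threshold, while DESeq2 called 348. Without ZGW serum replicate 2 the count of unadjusted calls was 4, without control replicate 2 or control replicate 3 it was 2, and without ZGW serum replicate 3 it was 0.

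High glucose against control separated the families less. The 3 Tcstv genes lay above 0 (median 0.55), beside 49.0% of all genes, and 2 of them, Tcstv1 and AF067061, did not overlap, beside 6.84% of all genes higher without overlap. Relative to library totals alone the count was 0, beside 7.42%. Of the Tdpoz genes, Tdpoz3 and Tdpoz5 had log2 fold changes of 0.30 each and Tdpoz1, Tdpoz2 and Tdpoz4 of -0.25 each, with standard errors of 0.34 to 0.75, beside 51.0% of all genes below 0. Tdpoz4 alone was lower without overlap, beside 6.91% of all genes, and relative to library totals alone none was, beside 6.67%. By edgeR, 0 of 8 members reached an unadjusted p under 0.05, beside 7.39% of all genes, and 0 of 16964 genes (0.0%) passed the adjusted threshold, while DESeq2 called 129 and none of the members. Without high glucose replicate 1, 1 member had an unadjusted edgeR p under 0.05. The comparison shares its high glucose libraries with that of ZGW serum against high glucose, and its control libraries with that of ZGW serum against control.

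**Figure D3:**
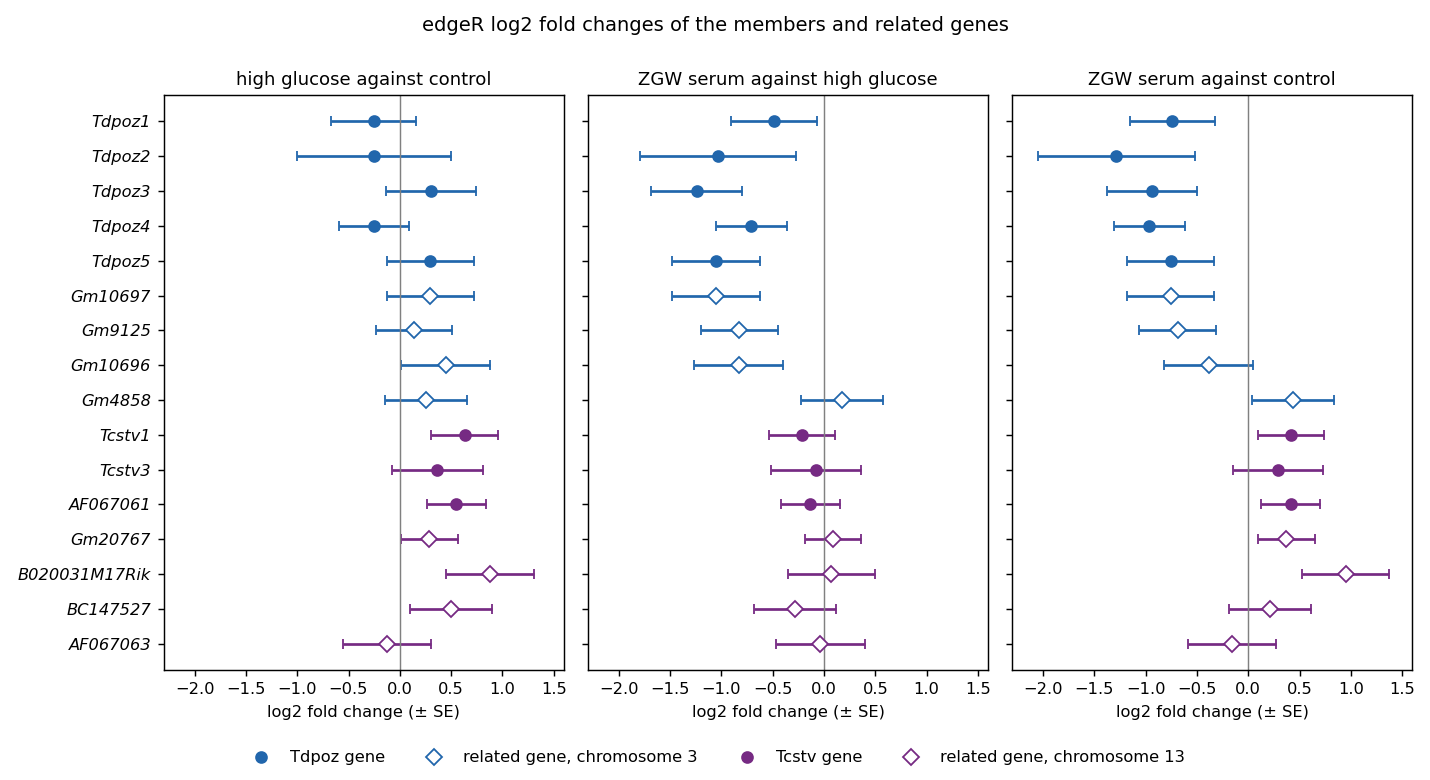
Log2 fold change with its standard error (edgeR, 9 libraries in 1 fit) of the 8 genes (filled circles) and their related copies (open diamonds) in the 3 comparisons. The 5 Tdpoz genes lie left of 0 in both ZGW serum panels, while the 3 Tcstv genes lie within 1 standard error of 0 against high glucose.

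Summed over the family, Tdpoz transcripts made up 174, 273 and 93.0 CPM in ZGW serum libraries, 349, 393 and 294 CPM in high glucose libraries and 288, 277 and 383 CPM in control libraries. After TMM scaling all ZGW serum sums lay below all others, the nearest pair being ZGW serum replicate 2 and control replicate 2. Relative to library totals alone the sums were 183, 304 and 87.6 CPM in ZGW serum libraries, 330.1, 409 and 287 CPM in high glucose libraries and 281, 269.9 and 375 CPM in control libraries, so that ZGW serum replicate 2 lay among the other 6. The mean was 180.0 ± 90.2 CPM with ZGW serum, 345 ± 49.4 with high glucose and 316 ± 58.3 in control (SD, n = 3 each). The difference in mean log2 sum was -1.06 for ZGW serum minus high glucose, and it ran from -1.43 without ZGW serum replicate 2 to -0.65 without ZGW serum replicate 3.

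Tcstv transcripts summed to 1182, 2132 and 1015 CPM in ZGW serum libraries, 1225, 1937 and 1613 CPM in high glucose libraries and 1185, 801 and 1343 CPM in control libraries. The ZGW serum sums covered nearly the whole range of the 9. The differences in mean log2 sum were -0.19 for ZGW serum minus high glucose, 0.33 for ZGW serum minus control and 0.53 for high glucose minus control. As each library was left out, these ran from -0.51 to 0.021, from 0.014 to 0.55 and from 0.31 to 0.70.

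The balance between the families set the ZGW serum libraries apart from the other 6. The ratio of summed Tcstv counts to summed Tdpoz counts does not depend on how libraries are scaled, and was computed after the counts of single genes had been seen. It was 6.79, 7.81 and 10.9 in ZGW serum libraries, 3.51, 4.93 and 5.48 in high glucose libraries and 4.11, 2.89 and 3.51 in control libraries. The lowest ZGW serum ratio was above the highest of the other libraries, while high glucose and control overlapped. If Tdpoz5 were an equal part of a divided pair and its counts were doubled, the ratio would be 4.21, 5.04 and 7.64 in ZGW serum libraries, 2.27, 3.08 and 3.34 in high glucose libraries and 2.85, 1.91 and 2.19 in control libraries, with ZGW serum again above the other 6.

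The mean log2 ratio was 3.06 ± 0.35 with ZGW serum, 2.19 ± 0.34 with high glucose and 1.79 ± 0.25 in control (SD, n = 3 each). The difference was thus 0.87 for ZGW serum minus high glucose, 1.26 for ZGW serum minus control and 0.39 for high glucose minus control. Each exceeded the SD of every group, the last by little and with overlap of its 2 groups. As each library was left out in turn, these differences ran from 0.68 to 1.02, from 1.07 to 1.41 and from 0.26 to 0.58. No test was made of the ratio, since it was built from members whose values were known.

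Each Tcstv gene set against each Tdpoz gene gives 15 pairs, which share libraries and members and restate the values above. Between ZGW serum and high glucose the log2 ratio differed by 0.36 to 1.13 (median 0.88). Between ZGW serum and control it differed by 1.05 to 1.42 (median 1.29). Between high glucose and control it differed by 0.028 to 0.92 (median 0.49).

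**Figure D4:**
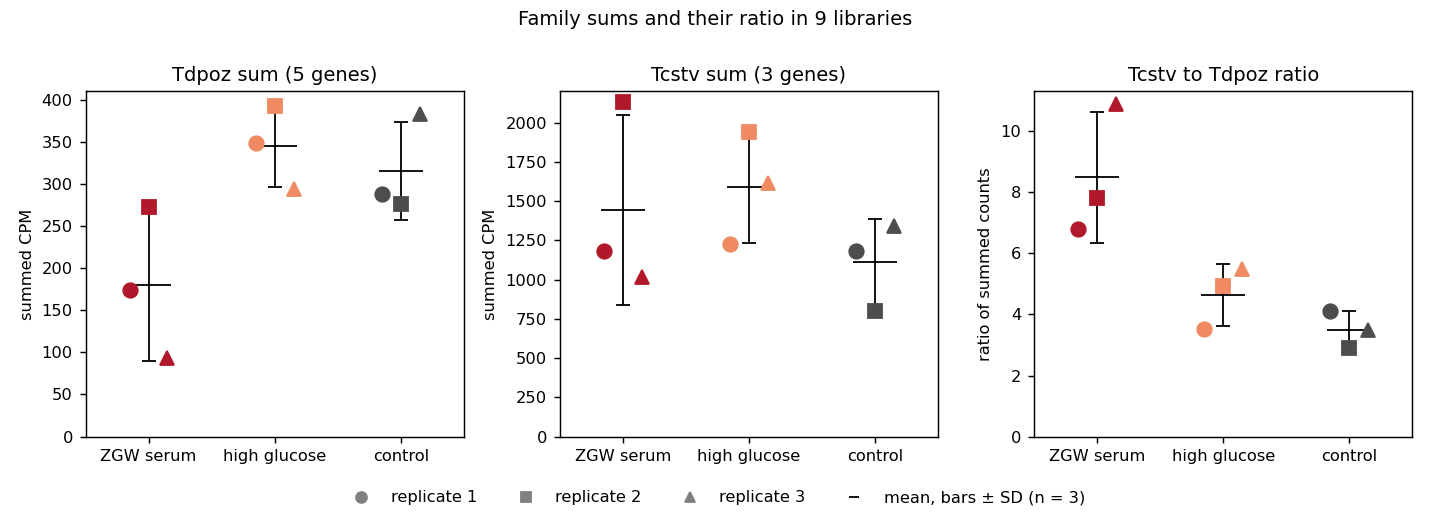
Summed CPM of the 5 Tdpoz genes and of the 3 Tcstv genes, and the ratio of their summed counts, in each library, with marker shapes for replicate numbers and the mean with SD bars (n = 3). The ZGW serum ratios of 6.79 to 10.9 lie above the 2.89 to 5.48 of the other 6 libraries.

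Within each family the most abundant gene gave a like share in the 3 groups. Tdpoz5 gave 53.0 ± 9.39% of Tdpoz counts with ZGW serum, 59.6 ± 4.45% with high glucose and 52.1 ± 7.87% in control (SD, n = 3 each). AF067061 gave 44.8 ± 4.09% of Tcstv counts with ZGW serum, 43.9 ± 3.09% with high glucose and 42.8 ± 1.40% in control. Both overlapped between the groups. Of the 8 genes, Tdpoz1 was the single one whose share lay apart between groups, in 1 comparison: it was 15.0 ± 1.69% of Tdpoz counts with high glucose, against 20.0 ± 2.30% in control. By CPM, 6.91% of all genes were lower without overlap in that comparison, so 1 such share among 8 genes and 3 comparisons says little. As part of all counts, Tdpoz genes took 0.0191 ± 0.0108% with ZGW serum, 0.0342 ± 0.00622% with high glucose and 0.0309 ± 0.00574% in control. Tcstv genes took 0.152 ± 0.0747% with ZGW serum, 0.158 ± 0.0429% with high glucose and 0.108 ± 0.0273% in control.

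Related copies of the 2 families gave mixed values. Gm9125, whose coding sequence is 98.5% identical to that of Tdpoz1, had a log2 fold change of -0.83 ± 0.38 for ZGW serum against high glucose, and Gm10696, another Tdpoz-like gene, of -0.83 ± 0.44. Gm4858, which is nearest to Tdpoz4 at 81.0% identity, differed from them in sign, at 0.18 ± 0.40. Among Tcstv-like copies, Gm20767 stood at 0.08 ± 0.27, B020031M17Rik at 0.072 ± 0.43, BC147527 at -0.29 ± 0.40 and AF067063 at -0.034 ± 0.43. With 3 Tdpoz-like and 4 Tcstv-like copies added to the sums, chosen after their counts were seen, the ratio was 4.13, 4.87 and 7.30 in ZGW serum libraries, 2.10, 3.39 and 3.75 in high glucose libraries and 2.61, 2.49 and 2.68 in control libraries. Every ZGW serum library lay above the other 6. These sums still hold the members themselves, so this in part restates the ratio above and lends it no separate support.

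A wider list of genes encoding Spop-like, Tdpoz-like or Tcstv-like proteins had 30 names, of which 10 were in the table and tested. Of the 10, 8 lay below 0 (median -0.71) for ZGW serum against high glucose and 2 above, and for high glucose against control 1 below and 9 above (median 0.37). None passed the adjusted edgeR threshold. With ZGW serum against control 5 lay below 0 and 5 above (median -0.075). The 10 include Gm10697, which repeats the counts of Tdpoz5, and without it the medians were -0.59 for ZGW serum against high glucose, 0.0068 for ZGW serum against control and 0.45 for high glucose against control.

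In both ZGW serum comparisons, the median of other families of the same 2-cell wave was nearer to that of the Tdpoz genes than to that of the Tcstv genes. Of 36 listed transient 2-cell genes, 32 were tested. The list was chosen with earlier results of these data known. For ZGW serum against high glucose 28 of 32 lay below 0, with a median of -0.81, beside 49.9% of all genes. An unadjusted edgeR p under 0.05 was reached by 17, all lower, beside 8.68% of all genes. For ZGW serum against control 26 of 32 lay below 0 (median -0.76), beside 50.0% of all genes. For high glucose against control 6 of 32 did (median 0.27), beside 51.0%. By edgeR 0 of 32 passed the adjusted threshold in each comparison. DESeq2 called 4, all lower, for ZGW serum against high glucose, beside 241 of all 16964 genes. B020031M17Rik is in this list, and its coding sequence is 88.5% to 89.1% identical to those of the 3 Tcstv genes.

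Among 16 listed regulators of the 2-cell programme, 15 were tested and 0 passed the adjusted edgeR threshold. The list was not divided into activators and repressors, so its counts and median mix both. Between ZGW serum and high glucose 10 lay below 0 and 5 above (median -0.29). Zscan4d, a telomere-associated protein of the 2-cell state, averaged 894 ± 367 CPM with ZGW serum and 2334 ± 865 CPM with high glucose (SD, n = 3 each), a log2 fold change of -1.38 ± 0.44 (edgeR adjusted p = 0.466). Dppa3, a maternal factor, averaged 19903 ± 11543 CPM with ZGW serum and 9843 ± 2416 CPM with high glucose, with overlap, a log2 fold change of 1.02 ± 0.39 (edgeR adjusted p = 0.530). For high glucose against control the lowest p-values of the list were those of Setdb1, a histone methyltransferase (log2 fold change 0.75 ± 0.34, edgeR adjusted p = 0.676), Dppa3 (-0.79 ± 0.38, edgeR adjusted p = 0.697) and Dux. Dux averaged 40.5 ± 18.8 CPM with high glucose and 19.4 ± 11.9 CPM in control, with overlap, a log2 fold change of 1.06 ± 0.53 (edgeR adjusted p = 0.705).

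Genes that averaged 10 CPM or more (7528) were ranked by how closely their log2 CPM followed each family sum over the 9 libraries, as a description. Nearest to the Tdpoz sum, apart from the identical copy Gm10697, were Stac2 (Pearson 0.97, Spearman 0.92), Ylpm1 (0.96 and 0.83), Gm6902 (0.96 and 0.87) and Pabpc1 (0.96 and 0.73). Nearest to the Tcstv sum were Gm20767 (Pearson 0.95, Spearman 0.87), LOC106029237 (0.91 and 0.98) and Inpp5a (0.90 and 0.87). The median Pearson correlation of the ranked genes was 0.041 with the Tdpoz sum and -0.0055 with the Tcstv sum. The 2 family sums correlated with each other at 0.41 (Pearson) and 0.52 (Spearman). The genes named are the highest of 7528 over 9 libraries, so it says little that they exceed this value. Gm20767 holds 11.3% of the 50-base stretches of AF067061, so reads could match both. Libraries of 1 group share a treatment, and the points share each library's scaling.

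Markers of the embryo and of other cell types were read as a check of the labelled tissue. All 13 oocyte and early embryo markers were detected, and they summed to 61922 to 93659 CPM in ZGW serum, 33851 to 48375 CPM in high glucose and 49643 to 61081 CPM in control libraries. The 13 cumulus and granulosa cell markers summed to 4.03 to 7.71 CPM in ZGW serum, 6.28 to 13.4 CPM in high glucose and 11.8 to 26.0 CPM in control libraries. The 10 blood markers summed to 319.7 to 529 CPM in ZGW serum, 86.7 to 309 CPM in high glucose and 250.0 to 369 CPM in control libraries. The 10 stromal and epithelial markers summed to 16.4 to 50.1 CPM in ZGW serum, 42.1 to 75.9 CPM in high glucose and 78.8 to 153 CPM in control libraries. No marker of these lists was at 0 in all 9 libraries. For ZGW serum against high glucose, 5 of the 13 oocyte markers had a log2 fold change above 0 and 8 below (median -0.052). Their sum thus stands for the abundant ones and not for the list as a whole. The oocyte and blood sums were higher with ZGW serum than with high glucose in all libraries. The cumulus and stromal sums were lower with ZGW serum than in control in all libraries, beside the lower Tdpoz values. In each of the cumulus, blood and stromal lists only 4 markers passed the low-count filter. For ZGW serum against control, 3 of the 4 cumulus markers lay below 0 and 1 above, and 4 of the 4 stromal markers below. For ZGW serum against high glucose, 3 of the 4 blood markers lay above 0 and 1 below. The part of these cell types in the results was not tested.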

How the data were processed

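The authors deposited whole-number counts of reads per gene symbol, not normalised. Per the submitters' processing notes, Trim Galore and the build mm10 were used. The aligner, counter, annotation, strand setting and treatment of reads with several matches are unknown (not given in the sources used here). Groups came from the labels. The members and the gene lists were chosen with earlier results of these data known, and the family ratio and the related copies after the counts were seen.

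Counts were tested with edgeR 4.0.16 (R 4.3.3), by its quasi-likelihood test with TMM factors, its low-count filter (minimum 10), robust fitting and a mean for each group, over all 9 libraries together. Benjamini-Hochberg adjustment ran over 16964 genes (threshold 0.05). The fit's common biological coefficient of variation came to 0.731. Replicates all differed by more than sampling noise (chi-square per degree of freedom from 46.5 to 124). The test was also run on simulated counts with planted changes, whose outcome is not given here, so that run lends these results no support. Differences between family sums are differences of group means of log2(summed CPM + 0.5).

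Alternatives were RLE factors, library totals, DESeq2 1.42.0, limma-voom (limma 3.58.1), no filter, a filter of 10 counts in 6 libraries, fits of 2 groups, the replicate number as a block, and leaving out each library, with control replicate 1 and ZGW serum replicate 3 together added after the data were seen, as were Tdpoz5 counted double, the family list without Gm10697 and the overlap of groups under each scaling. Genes of the lists are named from the 4 of lowest p-value in a comparison, not all of which are printed. Positions and transcripts came from GENCODE M21 (GRCm38) and promoter windows from RefSeq (GRCm38.p6). Identities were computed with Biopython 1.88.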

Additional observations from a re-analysis of the deposited data

How the results depend on the processing

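No member passed the adjusted threshold under any alternative run, the lowest adjusted p being 0.0526 (Tdpoz4, ZGW serum against control, DESeq2). Differences of the family sums kept their sign under library totals, RLE factors and other priors, but separation of the groups depended on the scaling. With library totals alone, the Tdpoz sums of ZGW serum overlapped both other groups, and members without overlap numbered 2 Tdpoz genes in place of 4 for ZGW serum against high glucose and 0 in place of 3 for high glucose against control. With RLE factors the members without overlap were those found with TMM. The ratio is free of scaling by construction, and kept its sign as each library was left out. Of the members' log2 fold changes under alternatives, 420 kept their sign and 12 did not. Tcstv3 for ZGW serum against high glucose came to 0.021 with library totals alone. Tdpoz2 for high glucose against control came to 0.074 with limma-voom, and 0.42 with control replicate 1 and ZGW serum replicate 3 both left out. Without those 2 libraries, Tcstv3 and AF067061 for ZGW serum against high glucose came to 0.27 and 0.070. The cause was not tested.

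With each library left out in turn, 4 log2 fold changes took both signs: Tdpoz2 for high glucose against control from -0.72 to 0.43, Tcstv3 for ZGW serum against high glucose from -0.71 to 0.26 and against control from -0.38 to 0.63, and AF067061 for ZGW serum against high glucose from -0.41 to 0.066. The Tcstv sum for ZGW serum minus high glucose ran from -0.51 to 0.021.

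Deviations of same-numbered libraries correlated at -0.0065 to 0.104 over 9 pairs, and those of differently numbered libraries at -0.095 to 0.046. The highest value was that of replicate 2 of high glucose and of ZGW serum. Correlations this near 0 over all genes cannot decide whether the numbers pair the libraries. With the replicate block, 0 genes were called in each comparison, and Tdpoz2 for high glucose against control came to 0.033.

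Over all genes, DESeq2 called 129 for high glucose against control (55 higher, 74 lower), 241 for ZGW serum against high glucose (86 higher, 155 lower) and 348 for ZGW serum against control (99 higher, 249 lower), with 4 and 3 transient 2-cell genes called in the last 2, all lower. Library totals alone, limma-voom, no filter and the filter of 10 counts in 6 libraries each called 1 gene for ZGW serum against control, lower in each. Tdpoz2 had the fewest counts of the members, 22 to 188 per library.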

Other observations

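Other genes within 500 kb of each cluster were counted. Around the Tdpoz cluster 18 neighbours were in the table and 11 were tested, of which 7 lay below 0 and 4 above for ZGW serum against high glucose (median -0.83), and 4 below and 7 above for high glucose against control (median 0.29). The Tdpoz-like copies Gm9125, Gm10696 and Gm10697 are among those 11. Around the Tcstv cluster 14 neighbours were in the table and 12 were tested, of which 7 lay below 0 and 5 above for ZGW serum against high glucose (median -0.16), and 5 below and 7 above for high glucose against control (median 0.18). For ZGW serum against control 8 lay below 0 and 3 above around the Tdpoz cluster (median -0.69), and 6 below and 6 above around the Tcstv cluster (median -0.045). By edgeR, 0 of these neighbours passed the adjusted threshold in any comparison. Paip1, beside the Tcstv cluster, came nearest. It averaged 515 CPM with ZGW serum, 1744 with high glucose and 3103 in control. Its log2 fold change for ZGW serum against control was -2.59 (edgeR adjusted p = 0.0511).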
